A study of Mus musculus with 4 samples.

Results

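Protocadherins are cadherin-type adhesion proteins of the cell surface, and the 58 genes described here are all rows of the deposited table whose symbol begins with Pcdh, out of 16857 rows. They comprise 4 alpha, 22 beta, 12 gamma A, 7 gamma B and 3 gamma C genes of the clustered family, and 10 non-clustered genes. RefSeq annotates 70 such genes on this assembly, and the 12 others, of which 10 belong to the alpha cluster, were not analysed here.

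RNA was sequenced in 4 mouse adenoma colonoid lines, epithelial structures grown from colon adenoma tissue, with 1 library per line. The G0 libraries came from lines 75 and 179 of generation 0, genotype Apcnull/LSL-mTERT-het. The G2 libraries came from lines 157 and 236 of generation 2, genotype Apcnull/LSL-mTERT-homo. Generation and genotype thus differ together between the groups. All 4 lines carry the Apcmin name and the Apcnull genotype, and the labels name no Cre driver. The series text names CIN-low and CIN-high colonoids (chromosomal instability), but no label ties either name to G0 or G2. Each group is thus represented by 2 lines. The labels do not say how many mice they came from, so p-values measure only the spread between these lines.

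In the clustered family every variable exon has its own promoter, and a cell uses a subset of them. CTCF, cohesin and DNA methylation take part in that choice, which gives neurons individual surface identities. Alpha and gamma variable exons are spliced to constant exons shared by their whole cluster, whereas beta genes encode complete proteins without such a constant part. The non-clustered delta protocadherins are ordinary separate genes with roles in adhesion and cell movement, best known from the developing brain, and the delta-2 type can bind the WAVE actin regulators through its tail.

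Levels are normalized counts, meaning counts recovered from the deposited log2 values and divided by the authors' size factors. Recovered totals were 16545429 to 17901744 per library. Tert, the telomerase gene that the labels name, stood at 93.3 and 97.5 in the G0 libraries and at 0.0 and 1.0 in the G2 libraries. The epithelial markers Epcam and Krt8 were high in every library, at 5994.5 to 8669.1 and 21799.2 to 34427.0, while the colon identity factor Cdx2 fell from 2797 ± 568 to 228.5 ± 59.1 (SD, n = 2; limma adjusted p = 0.00043). Y-linked Kdm5d was at 0 in both G0 libraries and at 526.4 and 522.0 in G2. The presence of Y transcripts and the group therefore cannot be told apart for any gene below.

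Pcdh19 and Pcdh18 of the delta-2 type, Pcdhb11 and Pcdhb12 of the beta cluster, and Pcdhga3, Pcdhga6, Pcdhga9 and Pcdhgb6 of the gamma cluster rose in G2. Pcdhga7 and Pcdhgb1 of the gamma cluster fell. These 10 passed an adjusted p of 0.05 in limma, a moderated linear model fitted to log2(normalized count + 1) over all 13981 genes with a mean of at least 1. Of the 58 genes, 41 reached that mean, 11 had counts below it and 6 had a count of 0 in every library. The 8 that rose are 19.5% of the 41 tested, against a background of 5.93% of all genes tested. The 2 that fell are 4.88%, against 4.56%, and for both directions together the background was 10.5%. The G2 libraries lay above both G0 libraries for 20 of the 41 (background 29.2%) and below them for 7 (background 28.6%). The median log2 fold change over the 41 was 0.87, or 0.78 with genes at 0 in a group placed at their bound, and 0.01 over all genes. Genes low in both groups were removed by the filter. Pcdhb2, Pcdhb11, Pcdhga10 and Pcdhga11, at 0 in both G0 lines, passed it through G2 alone and could only be higher. The same holds for Pcdh18, at a G0 mean of 0.5, and nearly so for Pcdhb3, Pcdhb12 and Pcdhb20, at G0 means of 1.0. Pcdhb11, Pcdhb12 and Pcdh18 are among the 8 that rose. Pcdha9, at 0 in both G2 lines, passed it through G0 alone and could only be lower. The filter thus bears on these shares and medians, for the members and for all genes. Moreover, 8 of the 10 lie on chromosome 18 with the clusters, so these shares do not come from independent genes.

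All 10 calls were lost when any single library was left out, which leaves 1 library in a group. Nearly all calls over all genes were lost in the same fits, so this loss was not particular to the protocadherins. limma then called 0 protocadherins whether line 75, 179, 157 or 236 was the one removed. Their adjusted p lay between 0.0683 and 0.330 in these fits, and in that order 8, 9, 10 and 8 of them had an unadjusted p under 0.05. The 10 genes kept their direction in all 4 fits. It could not change there, since for each gene the groups did not overlap. With all libraries but no filter on low values, limma called Pcdhb11 alone of the 10. Over all genes it then called 225, beside 1467 in the main fit. Without an intensity trend it called Pcdh18, Pcdh19, Pcdhb11 and Pcdhga3, while the other 6 had adjusted p of 0.074 (Pcdhga6) to 0.185 (Pcdhga7). Over all genes it called 623 without the trend.

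**Figure D1:**
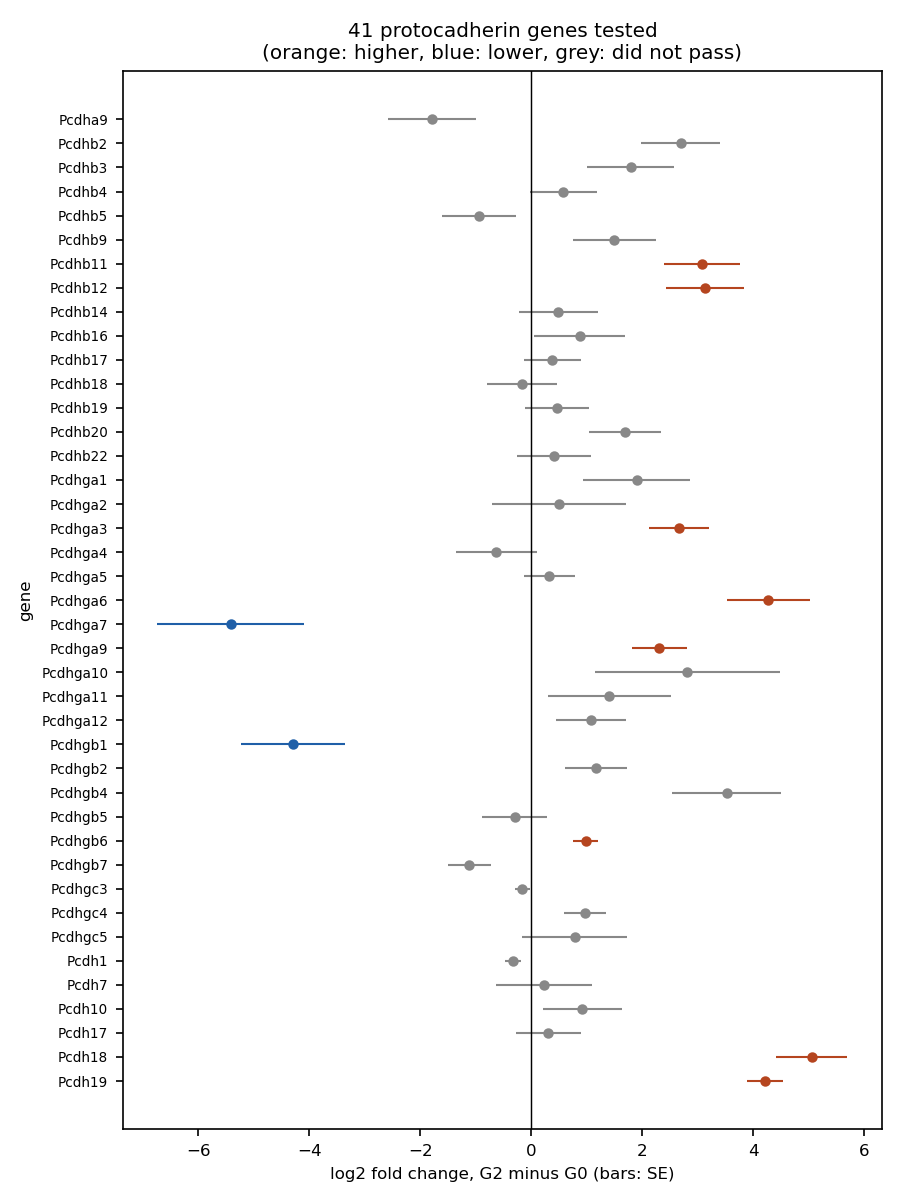
Log2 fold change of G2 minus G0 (x axis, log2 of normalized count + 1) with its SE for the 41 protocadherin genes tested (y axis). The 8 genes that rose are orange, the 2 that fell are blue, and grey genes did not pass; Pcdh18 has the highest value, 5.06, and Pcdhga7 the lowest, -5.42.

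Pcdh19 encodes a delta-2 protocadherin that pairs with classical N-cadherin and is known for an X-linked epilepsy. It lies on chromosome X from 133582860 to 133689044 (mm10, minus strand). Its normalized counts were 51.1 and 27.4 in G0 replicates 1 and 2, and 774.5 and 656.9 in G2 replicates 1 and 2. Both G2 lines were far above both G0 lines, and the replicates of each group lay close beside that gap. The rise was 18.2-fold, from 39.2 ± 16.7 to 715.7 ± 83.2, with a log2 fold change of 4.21 and an SE of 0.32 (limma adjusted p = 0.000679). It was 14.0-fold to 26.1-fold when each library was left out in turn. An annotated antisense transcript overlaps 57 of its 10464 exon bases, and without a stated strand setting the reads of each cannot be told apart there.

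Pcdh18, another delta-2 gene, described in mesenchyme and the nervous system, lies on chromosome 3 from 49743291 to 49757383 (minus strand). It had 1.0 and 0.0 normalized counts in the G0 libraries and 32.3 and 65.5 in the G2 libraries. The G0 lines were thus at the floor of the table and both G2 lines above it. The ratio of means was 99.6 with a 95% exact counting interval of 17.5 to 3972 (log2 fold change 5.06, SE 0.64, limma adjusted p = 0.00518). The ratio was 49.8 (interval 8.73 to 1986) without G0 replicate 2 and 65.7 (interval 11 to 2676) without G2 replicate 2. Without G0 replicate 1 the G0 level was 0 and the rise at least 16.0-fold, against a floor of 3 counts per library. Intervals and floors cover counting error only.

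The start regions of these genes, the non-clustered members that rose, are shown as RefSeq GRCm38.p6 gives them. Each is 183 bases upstream of every annotated start, at chr3:49757384-49757566 for Pcdh18 and chrX:133689061-133689243 for Pcdh19, both on the minus strand and written 5′ to 3′. Capitals mark a GC box, searched as GGGCGG on both strands.
Pcdh18: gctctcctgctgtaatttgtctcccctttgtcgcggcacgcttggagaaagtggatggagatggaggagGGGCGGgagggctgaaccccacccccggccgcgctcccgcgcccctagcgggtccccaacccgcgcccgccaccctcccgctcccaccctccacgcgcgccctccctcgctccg
Pcdh19: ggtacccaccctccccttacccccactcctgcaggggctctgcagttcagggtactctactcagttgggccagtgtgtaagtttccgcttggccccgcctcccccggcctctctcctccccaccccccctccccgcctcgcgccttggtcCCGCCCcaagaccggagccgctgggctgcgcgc
Each window held 1 GC box, as did 21.5% of 32851 promoter windows of the same length and place with at least 1. Neither held the TATA box TATAAA on any strand, which occurs in 8.49% of the windows. The CCAAT box was also absent from both and occurs in 25.5%. The TCF/LEF core CTTTGA, found in 11% of the windows, was absent as well. The windows were rich in G and C, at 72.1% for Pcdh18 and 70.5% for Pcdh19 beside a median of 51.4%. They held 19 and 11 CG dinucleotides beside a median of 4, at percentiles 91.6 for Pcdh18 and 76.6 for Pcdh19. These matches describe letters and are not evidence that a factor binds.

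Pcdh1, a delta-1 gene of epithelial and endothelial adhesion, was, with Pcdhgc3, far more abundant per length than the other protocadherins. It lies on chromosome 18 from 38185914 to 38212048. Its normalized counts stood at 3088.1 and 3755.4 in G0 and at 2871.2 and 2542.4 in G2. Both G2 lines were below both G0 lines, but the difference, a log2 fold change of -0.33 with an SE of 0.15, did not pass (limma adjusted p = 0.213). Pcdh1 set the sum of the non-clustered genes, which was 3475 ± 448 in G0 and 3492 ± 304 in G2. Without it the other 9 summed to 70.7 and 36.6 in G0 and 836.0 and 735.1 in G2, to which Pcdh19 gave 51.1, 27.4, 774.5 and 656.9.

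The remaining non-clustered genes were scarce. Pcdh17, a delta-2 gene of neuronal circuits, had 7.9 and 6.1 in G0 and 13.1 and 5.9 in G2, so the groups overlapped (limma adjusted p = 0.767). Pcdh7 of the delta-1 type ranged from 2.0 to 10.1 and its groups overlapped too (adjusted p = 0.888, limma). Pcdh10, a delta-2 gene often silenced by methylation in tumours, had 3.9 and 1.0 in G0 and 5.0 and 4.9 in G2 (limma adjusted p = 0.441). Pcdh9 had 1 count in 1 library, and Pcdh8, Pcdh11x and Pcdh15 had 0 in all 4, so a level under 3 counts per library was not detectable. Pcdh11x lies on the X chromosome like Pcdh19.

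**Figure D2:**
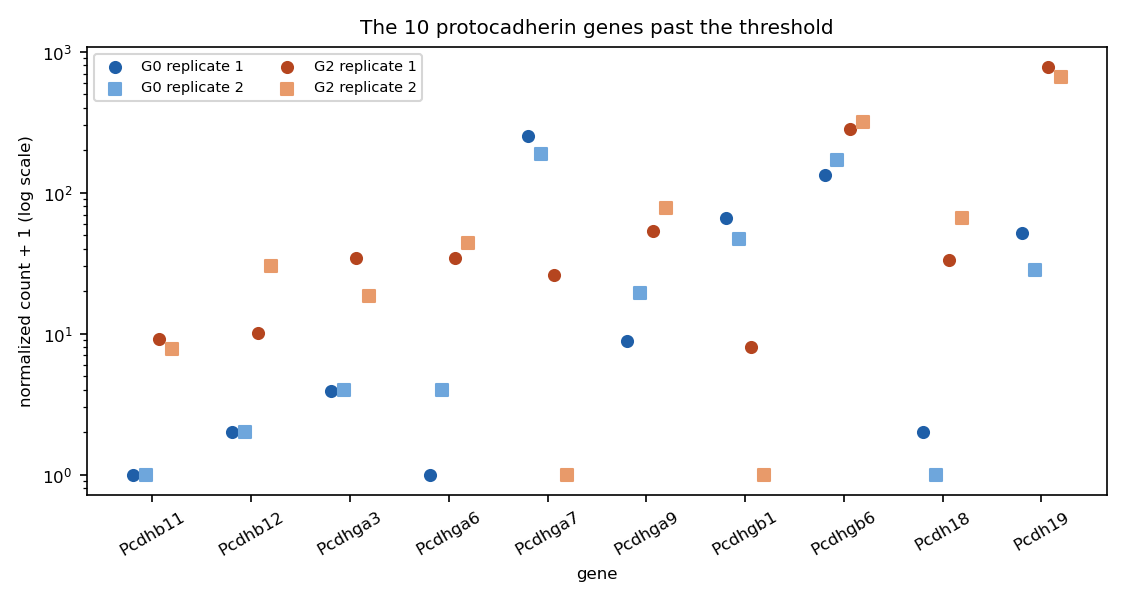
Normalized count + 1 (y axis, log scale) of the 10 genes past the threshold (x axis) in each library, 1 point per library. For 8 genes both orange G2 points lie above both blue G0 points, from Pcdhb11 at 0.0 against 8.1 and 6.8 to Pcdh19 at up to 51.1 against at least 656.9, and for Pcdhga7 and Pcdhgb1 below.

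The gamma cluster supplied most of the clustered counts, and Pcdhgc3 most of those. Pcdhgc3 is a C-type gene, used broadly and not chosen at random, on chromosome 18 from 37806410 to 37841873. It had 1890.2 and 1999.1 normalized counts in G0 and 1828.4 and 1656.8 in G2. The G2 lines were lower by a log2 fold change of -0.16 with an SE of 0.13, which did not pass (limma adjusted p = 0.474). In normalized counts per kilobase of annotated exon, the G0 mean was 354 for Pcdhgc3, 389 for Pcdh1, 44.2 for Pcdhga5, 42.2 for Pcdhga7, 32.4 for Pcdhgb6 and 3.75 for Pcdh19. On the same scale the G2 mean was 317 for Pcdhgc3, 308 for Pcdh1, 61.8 for Pcdhga5, 2.42 for Pcdhga7, 63.7 for Pcdhgb6 and 68.4 for Pcdh19. The order below Pcdh1 and Pcdhgc3 thus differed between the groups, with Pcdhga5 and Pcdhga7 next in G0 and Pcdh19 next in G2. An antisense transcript overlaps 1559 of the 5499 exon bases of Pcdhgc3, which leaves its level uncertain.

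Gamma rows are uncertain in a further way. By GENCODE, 27.8% to 66.8% of the exon bases of a gamma gene are shared with other gamma genes, mostly the 2119 bases of the common constant exons. How the authors' counting divided reads in these exons is not given in the sources used here. Pcdhga8 nevertheless had 0 counts in all 4 libraries while Pcdhgc3 had at least 1656.8, so shared reads were not credited to every gamma gene. Alpha genes shared 53.6% to 54.9% of their exon bases. Of the 22 beta genes, 20 shared none, and Pcdhb21 and Pcdhb22 overlapped by 455 bases.

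Among the gamma genes, Pcdhga7 was the first-ranked A or B gene of both G0 lines and low in G2. It lies from 37714834 to 37841873 on chromosome 18. It had 253.3 and 186.9 normalized counts in G0 and 25.2 and 0.0 in G2, so both G0 lines were well above both G2 lines, which differed from each other as well. The fall in mean normalized count was 17.5-fold with a log2 fold change of -5.42 and an SE of 1.3 (limma adjusted p = 0.0460). It was 8.73-fold without G2 replicate 2 and at least 75.1-fold without G2 replicate 1, where G2 is at 0. The call was lost with a pseudocount of 0.5 (adjusted p = 0.0669), with library totals as the scale (0.0616), without an intensity trend (0.185) and without a filter (0.299), in a range of 1.55e-05 to 0.330 over all alternatives. An antisense transcript overlaps 536 of its 5217 exon bases.

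Pcdhgb1 showed the same pattern at a lower level. It had 64.8 and 45.7 in G0 and 7.1 and 0.0 in G2, a fall of 15.7-fold (log2 fold change -4.29, SE 0.94, limma adjusted p = 0.0335). The fall was 7.83-fold without G2 replicate 2. With a pseudocount of 0.5 it missed the threshold (adjusted p = 0.0533, range 9.48e-05 to 0.282 over all alternatives). Pcdhgb7 also stood lower, at 91.3 and 93.5 against 59.5 and 29.3, and did not pass (limma adjusted p = 0.123).

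Pcdhgb6 was the most abundant of the gamma genes that rose. It had 133.5 and 169.6 in G0 and 280.4 and 316.7 in G2, with similar values within each group, and rose 1.97-fold (log2 fold change 0.98, SE 0.22, limma adjusted p = 0.0366). Pcdhga9 had 7.9 and 18.3 in G0 and 52.4 and 77.2 in G2. That rise was 4.96-fold (limma adjusted p = 0.0310) and 8.25-fold without G0 replicate 2. Both genes were higher in each G2 line than in either G0 line, but Pcdhga9 started from a far lower level.

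Pcdhga6 and Pcdhga3 were near the floor in G0. Pcdhga6 had 0.0 and 3.0 in G0 and 33.3 and 43.0 in G2, or 25.0 times the G0 mean (counting interval 8.25 to 124) (limma adjusted p = 0.0157). Without G0 replicate 1 its ratio was 12.5 (interval 4.13 to 62.0), and without G0 replicate 2 it was at least 13-fold higher. Pcdhga3 had 2.9 and 3.0 in G0 and 33.3 and 17.6 in G2, a rise of 8.49-fold (limma adjusted p = 0.0268). The G2 lines were clearly detected for both genes, whereas G0 levels rested on 3 counts for Pcdhga6 and 6 for Pcdhga3.

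Rising and falling gamma genes were neighbours along the cluster, whose 22 first exons start between 37661775 and 37819546 of chromosome 18. Pcdhga3, which rose, starts 5937 bases before Pcdhgb1, which fell, and Pcdhga6, which rose, starts 7733 bases before Pcdhga7, which fell. Pcdhga9 and Pcdhgb6, which both rose, are also neighbours, 5158 bases apart. Genes beside the clusters did not pass. Taf7, between the beta and gamma clusters, stood at 53.8 ± 14.2 and 58.4 ± 14.2, and Diaph1, beyond the gamma cluster, at 2750 ± 8 and 2917 ± 321 (limma adjusted p = 0.854 and 0.743).

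Some gamma genes stood out in 1 line. Pcdhga10 had 48.4 normalized counts in G2 replicate 1 and 0.0 in the other 3 libraries, and Pcdhga11 had 6.1 in the same line and 0.0 elsewhere. The same antisense transcript, Gm26672, overlaps 2613 of the 4732 exon bases of Pcdhga10 and 1381 of the 4756 of Pcdhga11, and its part in these counts was not tested. Pcdhga5 was highest in G2 replicate 2, at 424.2, beside 240.6, 171.7 and 152.3, and its groups overlapped (limma adjusted p = 0.692). Pcdhgb5 had 154.2 and 75.2 in G0 and 159.3 and 47.9 in G2, so its spread lay within the groups (adjusted p = 0.782, limma). Pcdhgb2 had 24.5 and 25.4 in G0 and 102.9 and 31.3 in G2 and did not pass (limma adjusted p = 0.237). Pcdhgb4 had the smallest adjusted p of the gamma genes that missed, at 0.0 and 7.1 against 23.2 and 43.0 (limma adjusted p = 0.0673). It passed with a pseudocount of 5 (adjusted p = 0.0324) and on the deposited values (0.0495).

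The other 2 C-type genes were modest. Pcdhgc4 stood at 19.6 and 31.5 in G0 and at 51.4 and 47.9 in G2, with no overlap, and did not pass (limma adjusted p = 0.163). Pcdhgc5 ranged from 3.0 to 25.4 and its groups overlapped. Pcdhga1, Pcdhga2, Pcdhga4 and Pcdhga12 lay between 0.0 and 25.4 in all libraries and did not pass. Pcdhgb8, an annotated pseudogene, had counts in G2 replicate 2 alone.

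The sum over the gamma A and B genes differed far less than these genes did. It was 986.8 and 829.9 in G0 and 1000 and 1070 in G2, a ratio of 1.14, and the gamma C sum had a ratio of 0.914. Within that sum the make-up differed between lines. Pcdhga7 took 25.7% (95% Wilson interval 23.1 to 28.5) of 1005 A and B counts in G0 replicate 1 and 22.5% (19.8 to 25.5) of 817 in G0 replicate 2. It took 2.52% (1.71 to 3.69) of 992 in G2 replicate 1, and 0 of 1095 in G2 replicate 2, which allows a share of up to 0.274% by the limit of 3 counts. Pcdhgb6 led in G2 replicate 1 with 28% (25.3 to 30.9), and Pcdhga5 in G2 replicate 2 with 39.6% (36.8 to 42.6). These intervals cover counting error only, and not how reads in shared exons were divided. The 3 leading genes held 65.7%, 63.6%, 59.2% and 76.4% of the A and B counts in G0 replicates 1 and 2 and G2 replicates 1 and 2.

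**Figure D3:**
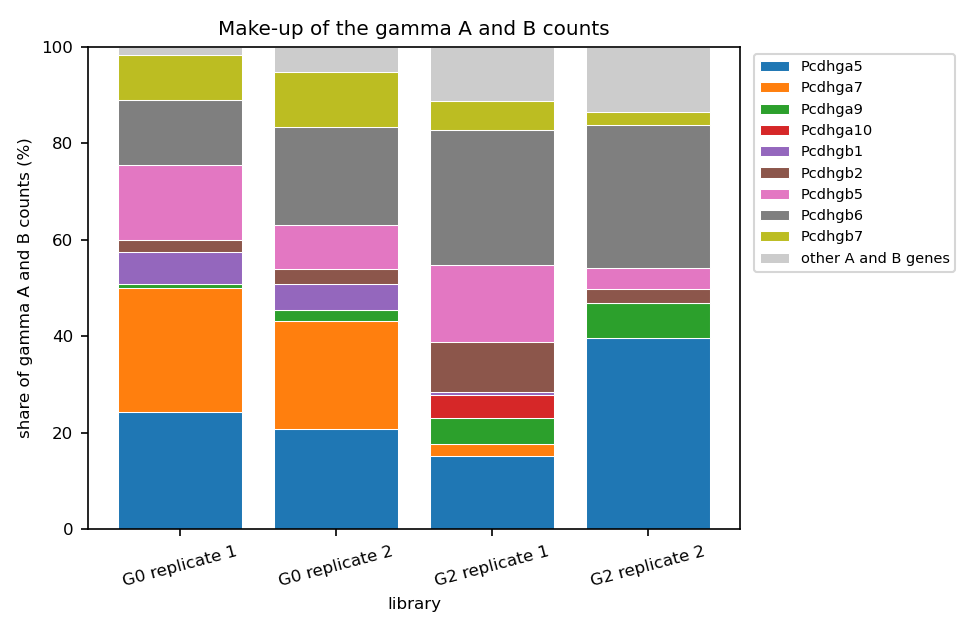
Share of each gene in the gamma A and B counts (y axis, percent) of each library (x axis), as stacked bars. Pcdhga7 (orange) takes 25.7% and 22.5% in the G0 bars and 2.52% and 0% in the G2 bars, while Pcdhga5 (blue) reaches 39.6% in G2 replicate 2.

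Beta genes were low throughout, the highest value of any of them being 29.3 normalized counts, for Pcdhb12 in G2 replicate 2, yet their sum was higher in G2. The 22 beta genes summed to 53.0 and 37.6 in G0 and to 93.8 and 113.4 in G2, a ratio of 2.29, without overlap. It stayed between 1.95 and 2.76 when each library was left out in turn. Of the 14 beta genes tested, 2 rose and 0 fell (limma), and 4 had an unadjusted p under 0.05, each of them higher in G2. Those 4 are 28.6% of the 14, near the 26.8% of all genes tested.

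Pcdhb11 and Pcdhb12 start at 37421418 and 37435621 of chromosome 18. Pcdhb11 had 0.0 and 0.0 in G0 and 8.1 and 6.8 in G2, at least 2.49-fold higher against the floor of 3 counts per library (limma adjusted p = 0.0365). Pcdhb12 had 1.0 and 1.0 in G0 and 9.1 and 29.3 in G2, or 19.2 times the G0 mean (counting interval 4.98 to 164) (limma adjusted p = 0.0376). That ratio was 29.4 (7.45 to 253.5) without G2 replicate 1 and 9.09 (1.88 to 86.4) without G2 replicate 2. An antisense transcript overlaps 1927 of the 3034 exon bases of Pcdhb12. On the deposited log2 scale Pcdhb12 missed the threshold (adjusted p = 0.0676, range 0.00517 to 0.253 over all alternatives).

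Other beta genes had a like pattern below the threshold. Pcdhb2 was at 0.0 in both G0 lines and at 5.0 and 5.9 in G2 (limma adjusted p = 0.0601). Pcdhb20 stood at 1.0 in both G0 lines and at 5.0 and 5.9 in G2 (limma adjusted p = 0.156). Pcdhb2 passed without a filter on low values (0.0148) and without an intensity trend (0.0146), as did Pcdhb20 (0.0492 and 0.0263). With at least 3 counts taken as detected, 6 and 8 beta genes were detected in the G0 lines and 14 and 12 in the G2 lines. Detected in both G2 lines and neither G0 line were Pcdhb2, Pcdhb3, Pcdhb11, Pcdhb12 and Pcdhb20, and 0 beta genes had the opposite pattern. Of all 16857 rows, 1.5% were detected in both G2 lines and neither G0 line, and 1.04% the other way round. These shares include rows far above 3 counts in every library, whereas most beta genes lay near that limit. Shares among rows of a like level were not taken.

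Pcdhb17, the beta gene with the highest mean count in G0, was at 12.8 and 7.1 in G0 and at 15.1 and 10.8 in G2 and its groups overlapped (limma adjusted p = 0.679). Pcdhb5 stood lower in G2, at 9.8 and 5.1 against 5.0 and 2.0, and did not pass (adjusted p = 0.408, limma). Pcdhb1 and Pcdhb6 had 0 counts in all libraries.

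The 4 alpha genes with a row, Pcdha3, Pcdha5, Pcdha8 and Pcdha9, were at or near the floor. They held 6 and 2 counts in the G0 libraries and 1 and 0 in the G2 libraries. Pcdha9, the only one tested, had 2.9 and 2.0 in G0 and 0.0 in both G2 lines, and did not pass (limma adjusted p = 0.201). Both of its group means were under the floor, so no fold is given.

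**Figure D4:**
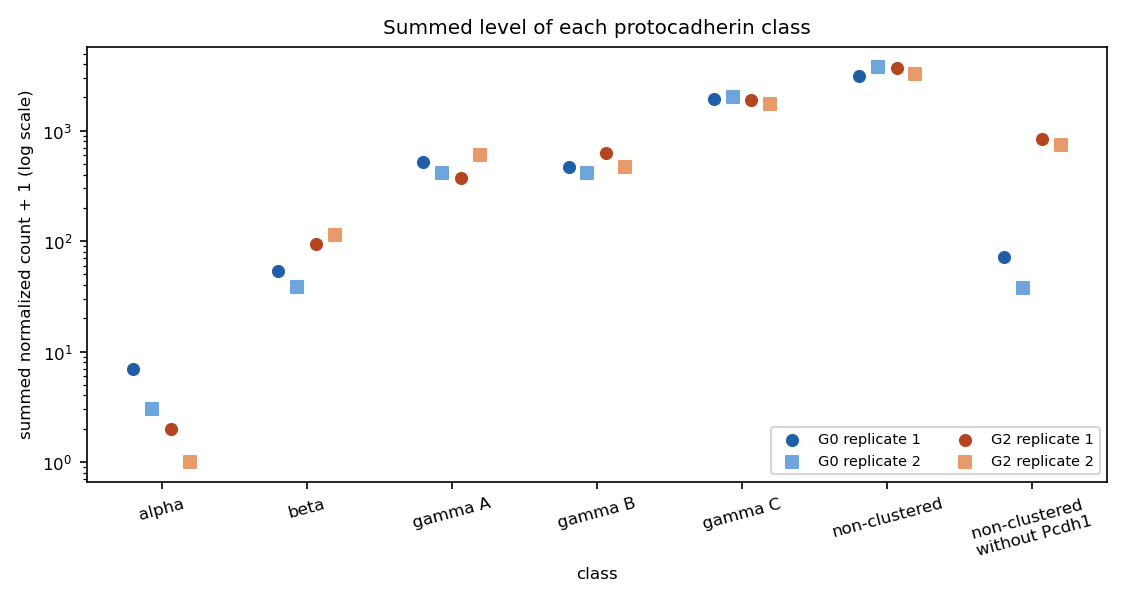
Summed normalized count + 1 of each class (y axis, log scale; classes on the x axis), 1 point per library. The beta sums of the G2 lines, 93.8 and 113.4, lie above those of the G0 lines, 53.0 and 37.6, as do the non-clustered sums without Pcdh1, while the gamma C sums lie close together at 1730 to 2034.

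**Figure D5:**
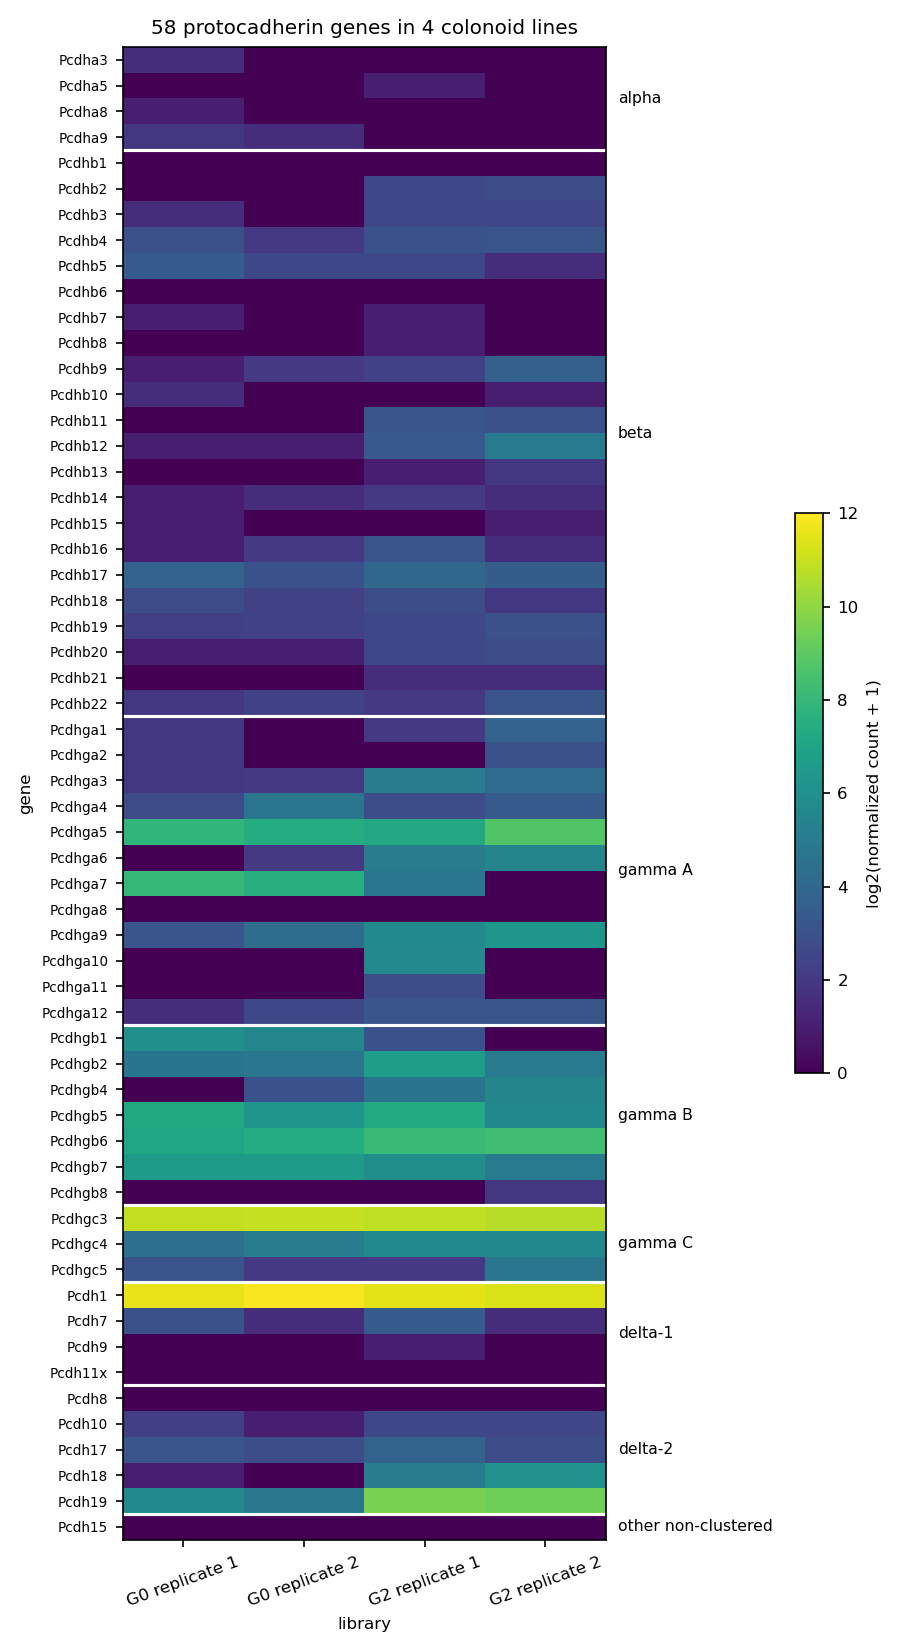
Log2(normalized count + 1) of all 58 genes (y axis, by class) in the 4 libraries (x axis). Pcdh1 and Pcdhgc3 are bright in every column, most alpha and beta genes are near 0, and Pcdh19 is brighter in the G2 columns, at 774.5 and 656.9 normalized counts, than in the G0 columns.

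Genes known to act on protocadherins were listed for context and described by counts. Beside these counts, 5.93% of all genes tested rose and 4.56% fell. Of 23 genes of cluster choice, 0 rose and 1 fell in limma, with a median log2 fold change of 0.01, and Tet3 alone was higher at an unadjusted p under 0.05. The 1 that fell was Dnmt1, the maintenance DNA methyltransferase, from a mean of 4802 ± 287 to one of 3242 ± 37 (log2 fold change -0.57, SE 0.13, limma adjusted p = 0.0374). Ctcf, which anchors the loops between promoters and enhancers of the clusters, was at 1490 ± 87 and 1494 ± 11 (adjusted p = 0.985, limma). Dnmt3b, the methyltransferase that sets methylation at cluster promoters, stood at 149.2 and 127.0 against 61.5 and 88.0 and did not pass (limma adjusted p = 0.101).

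Of 8 genes that cut protocadherins at the membrane, 0 passed in limma (median log2 fold change 0.05), and 2 had an unadjusted p under 0.05. Those were the protease gene Adam10, higher in G2, and Psenen of gamma-secretase, lower (adjusted p = 0.156 and 0.0938, limma). Of 15 cytoplasmic partners tested, 1 rose and 1 fell, with a median of 0.06. Fyn, a kinase that binds protocadherin tails, rose 4.04-fold from 15.7 and 20.3 to 54.5 and 90.9, and Abi3, an adaptor of WAVE complexes, fell from 150.5 ± 18.4 to 47.9 ± 23.5 (limma adjusted p = 0.0289 and 0.0364). Of 18 genes tested in a list of cadherins with the catenins Ctnnb1, Ctnna1 and Ctnnd1, Cdh1 and Cdh13 rose and Cdh17 fell. The median log2 fold change of that list was 0.53. Cdh1, or E-cadherin, rose 1.80-fold from 13911 ± 260 to 25077 ± 705, and Cdh17, a cadherin of intestinal epithelium, fell 5.27-fold from 3762 ± 228 to 714.5 ± 335.9 (limma adjusted p = 0.0171 and 0.00418).

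Of 8 colon epithelium markers, Cdh1 rose and Cdx2 and Vil1 fell, and the list summed to 119083 and 160764 in G0 and to 156396 and 163103 in G2. Markers of other cell types were measured beside these results. In bulk samples fewer cells of a type and less RNA per cell cannot be told apart. Of 12 neuron and enteric glia markers, 6 were tested and 0 passed in limma, also at an unadjusted p under 0.05. Their sum was 149.3 to 194.4 in G0 and 166.4 to 183.8 in G2, with the glial markers S100b and Gfap at 0. Of 8 fibroblast markers 2 were tested, and Col3a1 rose from 0.0 in both G0 lines to 7.1 and 6.8 in G2. Col1a1, the other, stood lower in G2, at 1.0 and 2.0 against 4.9 and 4.1, and did not pass (limma adjusted p = 0.306). The fibroblast list summed to 4.9 to 6.1 in G0 and 10.1 to 10.8 in G2, with Dcn and Pdgfra at 0. Of 6 endothelial markers 2 were tested and both rose, Tek and Vwf. The endothelial sum was 21.6 to 27.4 in G0 and 99.8 to 113.4 in G2, whereas Cdh5 was at 0.0 and Pecam1 at 1.0 and 2.0 in the G2 lines. Of 7 macrophage markers 4 were tested and 2 rose, Csf1r and Cd14, with a sum of 2121 to 3341 in G0 and 3280 to 4118 in G2 and Ptprc at 0. Cd68 and Cd14 made up most of that sum, and Cd68 stood at 1620 ± 693 and 1522 ± 524 (limma adjusted p = 0.918). Csf1r and Laptm5 were scarce, at 0.0 to 1.0 in G0 and 4.9 to 23.5 in G2, and Adgre1 and Lyz2 had no row. The part of these cells in the rise of Pcdh18, Pcdh19 and the beta genes was not tested.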

How the data were processed

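Bulk RNA-seq of 4 colonoid lines, 2 per group, was analysed. The authors deposited a table of values on a log2 scale whose lowest value, 6.508, is shared by all libraries. The submitters' processing notes list StringTie 2.1.1, DESeq2 1.32.0, HISAT2 2.1.0, R 3.5.2, bcl2fastq 2.20.0 and mm10. Annotation, strand setting and read filters were not given in the sources used here. Inverting the variance-stabilizing transformation and dividing by 1 scale factor per library gave whole numbers for 100% of values (tolerance 0.001), which can be rounded StringTie estimates. No negative binomial test was run on them. limma 3.58.1 (R 4.3.3; eBayes with trend, group as the only term, Benjamini-Hochberg over 13981 genes, two-sided) was used as planned for normalized values and was tested on simulated data. Fold changes in words are ratios of mean normalized counts, whereas log2 fold changes come from means of log values after adding 1. They understate the change of low genes and exceed the ratio where 1 library is at or near 0, as for Pcdhga7. Positions came from RefSeq GRCm38.p6 and exon lengths, over all transcripts, from GENCODE M21; both matched 58 of 58 genes. Genes named in full were those past the threshold, the up to 3 most abundant and the smallest p of each class. Members, lists and rules were chosen with earlier results of these data known. The neighbours Taf7 and Diaph1, and members outside the naming rule, were chosen after their values were seen. Alternatives varied the pseudocount, filter, trend, scale, replicate block and libraries.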

Additional observations from a re-analysis of the deposited data

How the results depend on the processing

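The 10 protocadherins past the threshold kept their direction in all alternatives in which they were tested, but not their calls. Their groups did not overlap, so leaving out a library or changing the pseudocount, filter or trend could not reverse a direction. Leaving out 1 library at a time, limma called 0 to 2 genes in place of 1467 (both of the 2, found without G0 replicate 2, are among the 1467), and 0 of the 8 that rose and 0 of the 2 that fell; between 2431 and 3234 genes then had an unadjusted p under 0.05. Without a filter on low values limma called 225 genes, 4 protocadherins that were higher and 0 that were lower, with 3597 genes at an unadjusted p under 0.05; 1 of the 10, Pcdhb11, was kept. Without an intensity trend it called 623 genes and 1 protocadherin that was lower, Pcdha9, and kept 4 of the 10. A pseudocount of 0.5 left 0 protocadherins lower and all 8 that rose, and library totals as the scale left 1 lower. With a mean of at least 5 normalized counts, 9 were kept, and Pcdhb11 was not tested. The cause of these losses was not tested. The labels give both groups replicate numbers 1 and 2, which share only a number: deviations of same-numbered libraries correlated at 0.109 across genes. With the replicate block limma called 3503 genes and 12 protocadherins, adding Pcdhgb4 and Pcdhgb7. With 1 library left out, the G2 to G0 ratio of summed levels was 0.79 to 1.29 for gamma A and 0.921 to 1.11 for the non-clustered genes, so neither has a stable direction, and 1.95 to 2.76 for beta. Levels under 3 counts per library were not detectable, which limits the alpha and most beta genes.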
